A study of Homo sapiens with 4 samples.

Results

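The PI3K-AKT-FOXO axis genes examined in SAS cells were PIK3CA, PIK3CB, PIK3R1, AKT1, AKT2, FOXO1, FOXO3 and CDKN1B, chosen by name as an axis reported to act downstream of AEG-1 (listed as MTDH). Every non-control probe whose accession belongs to one of the 8 genes in the RefSeq table was taken, which gave 13 of the 34127 probes on the array and 8 of its 27953 gene names or identifiers. SAS is a human tongue squamous cell carcinoma line. SB cells are SAS cells carrying one AEG-1 shRNA, shRNA-B, in the lentiviral vector pLKO.1, and SCt cells are the control, which is the pLKO.1 vector in the sample labels and a scrambled shRNA in the study's methods. Stable clones of both were obtained by selection in puromycin (2 μg/ml, 14 days), and no other shRNA of the study was put on the arrays. On each of 4 arrays, cDNA from 15 μg of SB RNA (Alexa Fluor 647, red) was hybridized together with cDNA from SCt RNA (Alexa Fluor 555, green). The labels call the 4 arrays biological replicates without saying whether they came from separate cultures, so the p-values may measure technical spread only.

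The class IA phosphoinositide 3-kinases are dimers of a catalytic subunit, such as the products of PIK3CA (p110α) and PIK3CB (p110β), and a regulatory subunit, such as those of PIK3R1. They make the membrane lipid that recruits and activates the AKT kinases. Active AKT phosphorylates the FOXO transcription factors, which then leave the nucleus, and genes that FOXO factors switch on, among them CDKN1B, fall. CDKN1B encodes p27, an inhibitor of cyclin-dependent kinases. This signaling is largely carried by phosphorylation, which an mRNA array does not read. By Western blot, the study reported no effect of the knockdown on phosphorylated Akt, GSK3β or IκB. It did report less phosphorylation of p65, a subunit of NF-κB, at a serine in the knockdown cells, though not at another. PIK3CA is often mutated or amplified in squamous carcinomas of the head and neck.

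AEG-1, the target of the shRNA, fell on every array, with a mean log2 ratio of SB over SCt cells of −3.18 ± 0.17 (SD, n = 4 arrays). The arrays were not alike in their other changes. Over all 28507 probes tested, the log2 ratios of pairs of arrays correlated at r = 0.32 to 0.46, except for arrays 1 and 4 (r = 0.047). RNA from SB cells was red on every array, with 0 dye-swapped arrays, so a preference of a probe for one dye cannot be told apart from the knockdown. In bulk RNA, a change in the share of cells that express a gene cannot be told apart from a change in RNA per cell. All 10 squamous epithelial markers, among them KRT5, KRT14 and TP63, gave a signal well above background in SB and SCt cells on every array. By limma, 0 of the 10 had an adjusted p under 0.05, where 3.51% of all genes did, so this count does not show them unchanged. Their log2 ratios lay between −0.28 (KRT6A) and 0.14 (KRT14), 4 above 0 and 6 below. With each array centered on its median instead of loess, 4 of the 10 passed, all higher in SB cells, beside 31.9% of all genes. The 6 leukocyte markers, PTPRC among them, were also well above background in both channels, so that this mark is a statement on the probe's signal and not on the cell type.

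Coordinates in RefSeq (GRCh38.p14) place PIK3CA at chr3:179148126-179240093 and PIK3CB at chr3:138652698-138834928. PIK3R1 lies at chr5:68215756-68301821, AKT1 at chr14:104769349-104795748 and AKT2 at chr19:40230317-40285345. FOXO1 lies at chr13:40555667-40666641, FOXO3 at chr6:108559825-108684774 and CDKN1B at chr12:12717368-12722369. The files used here hold neither the probes' sequences nor their positions, so the exon that a probe reads is not given. FOXO3 has a near-identical copy, FOXO3B, and whether the FOXO3 probes also read it was not tested.

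Since CDKN1B had the highest ratio of the axis and is a known FOXO target, the 250 bases before its RefSeq start are shown, on the plus strand of chr12:12717118-12717367 (GRCh38.p14). The windows of 300 bases around the starts of all 8 genes were searched for the forkhead letters GTAAACA, on both strands (reverse TGTTTAC). CDKN1B had no match, so its sequence carries no capitals. PIK3CA, the only match among the axis genes, had the letters at −149 from one of its RefSeq starts. The stretch at chr3:179148198-179148224 (plus strand) is shown with the match in capitals. It lies inside the gene's RefSeq coordinates, which begin at 179148126, and so not upstream of the whole gene.
CDKN1B: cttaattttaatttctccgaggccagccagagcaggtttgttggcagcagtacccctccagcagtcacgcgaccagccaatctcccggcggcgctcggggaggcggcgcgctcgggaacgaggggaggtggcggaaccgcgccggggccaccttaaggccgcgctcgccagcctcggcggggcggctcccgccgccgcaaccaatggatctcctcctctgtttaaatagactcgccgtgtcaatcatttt
PIK3CA: gttcgttgttTGTTTACacgatgtgag
The same letters stood in the windows of 4.19% of 27305 genes and of 3 of 22 other FOXO targets with a window, namely TXNIP, BCL2L11 and MXI1. Genes differ in their number of windows. Counted by window, 1 of 17 for the axis genes matched (5.88%), against 3.42% of all 35116. TXNIP, BCL2L11 and MXI1 had log2 ratios of 0.13 each at their brightest probe, and PIK3CA one of −0.14. None of these 4 passed the test, and a match of letters is a description of the sequence and not a measured binding site. A second search, for the insulin-response letters CAAAACAA (reverse TTGTTTTG), matched 0 of the 8 axis genes, 1 of the 22 targets and 2.08% of all genes.

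No gene of the axis passed the test. By limma, 0 of the 8 genes at their brightest probe and 0 of the 13 probes had an adjusted p under 0.05, where 3.51% of all 23485 genes (1.26% higher and 2.26% lower in SB cells) and 3.7% of all probes did. At an unadjusted p under 0.05 by limma there were 3 of the 8, PIK3R1, FOXO1 and CDKN1B, all higher in SB cells, against 18.1% of all genes (9.16% higher, 8.98% lower). The methods' t-test gave 0 genes after adjustment, but it called 0 of all 28507 probes, and so not even AEG-1. That count therefore cannot tell whether the axis genes changed. At an unadjusted p under 0.05 it gave 2 of the 8 genes, beside 13.7% of all genes. The median log2 ratio of the 8 genes was 0.05 and that of all genes 0.01, and the 8 lay between −0.14 and 0.23. The limma 95% intervals of the brightest probes reached no further than −0.29 (PIK3CA) and 0.36 (CDKN1B), a 1.22-fold lower and a 1.28-fold higher level in SB cells. For comparison, the smallest change of any probe that passed the test was 0.22 on the log2 scale. The SD over arrays had a median of 0.16 for the 13 probes and of 0.11 for all probes tested.

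**Figure D1:**
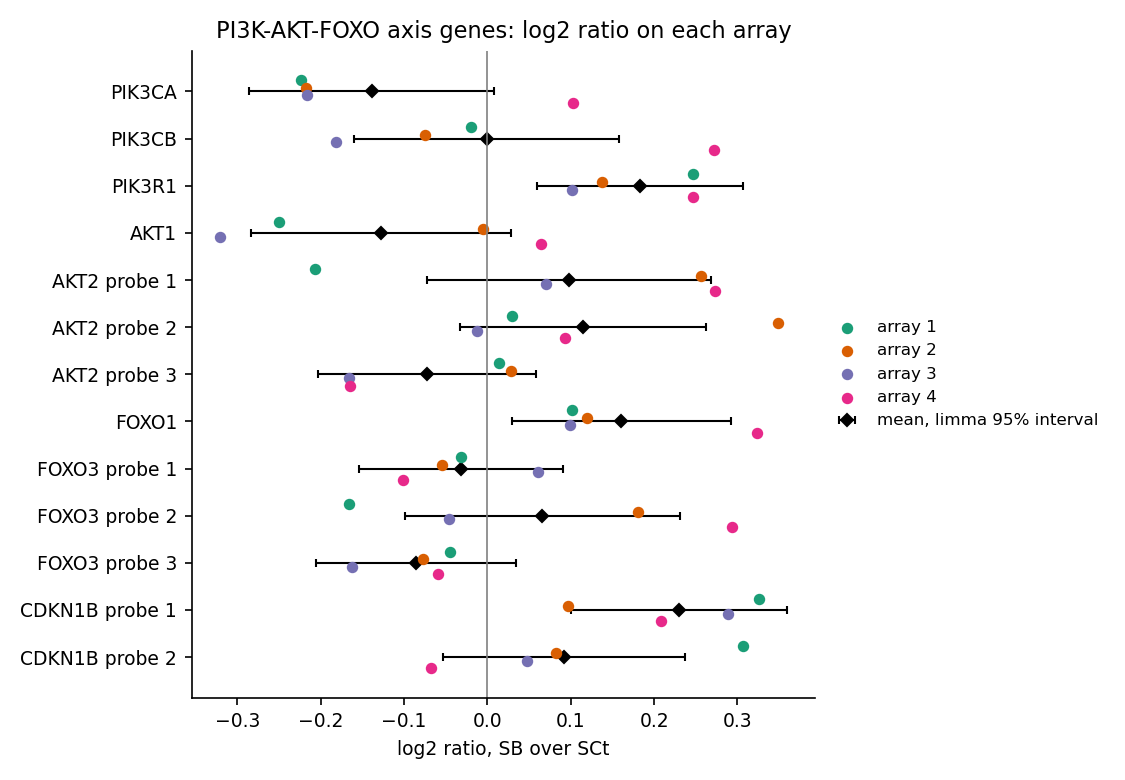
Log2 ratio of SB over SCt cells (horizontal axis) on each of the 4 arrays (colored points) for the 13 probes of the 8 axis genes, with the mean and the limma 95% interval (diamond and bar). Probes of one gene are numbered from the brightest to the dimmest. All 4 arrays lay on one side of 0 for PIK3R1, FOXO1, the third FOXO3 probe and the brightest CDKN1B probe. Array 4 was the highest at 7 of the 13 probes, and at 28.6% of all probes with values on 4 arrays.

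The catalytic subunits of PI3K did not differ beyond the spread between arrays. PIK3CA, which encodes p110α, had log2 ratios of −0.22, −0.22, −0.22 and 0.10 on arrays 1 to 4. The first 3 arrays were lower in SB cells by nearly the same amount, whereas array 4 was higher. Their mean was −0.14 ± 0.16 (SD, n = 4; limma, adjusted p = 0.297), with a 95% interval of −0.29 to 0.01. Without array 4, PIK3CA was past the threshold (log2 ratio −0.22, limma adjusted p = 0.0493), as were 6.58% of all genes. PIK3CB, which encodes p110β, had log2 ratios of −0.02, −0.08, −0.18 and 0.27. Here too array 4 alone was above 0, and the mean was −0.00098 ± 0.19 (SD, n = 4; limma, adjusted p = 0.996; 95% interval −0.16 to 0.16). PIK3R1, which encodes the regulatory subunits p85α, p55α and p50α, had log2 ratios of 0.25, 0.14, 0.10 and 0.25. All 4 arrays were higher in SB cells, but the mean of 0.18 ± 0.08 (SD, n = 4; 95% interval 0.06 to 0.31), a 1.14-fold difference, did not pass after adjustment (limma, adjusted p = 0.103). The PIK3R1 probe was among the dimmer ones of the axis, brighter than 35.2% of all probes.

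AKT1, the most widely expressed AKT kinase, had log2 ratios of −0.25, −0.0047, −0.32 and 0.06. Arrays 1 and 3 were lower in SB cells and the other two lay near 0, with a mean of −0.13 ± 0.19 (SD, n = 4; limma, adjusted p = 0.369; 95% interval −0.28 to 0.03). AKT2, the isoform best known for glucose uptake in response to insulin, was read by 3 probes. Its brightest probe had log2 ratios of −0.21, 0.26, 0.07 and 0.27, the second 0.03, 0.35, −0.01 and 0.09, and the dimmest 0.01, 0.03, −0.17 and −0.16. The means were 0.10 ± 0.22, 0.11 ± 0.16 and −0.07 ± 0.11 (SD, n = 4 each). Both brighter probes were above 0 on 3 arrays and the dimmest on 2, none passed the test, and their limma 95% intervals overlapped. Over the 3 probes together, AKT2 had a log2 ratio of 0.05 (limma, adjusted p = 0.732).

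FOXO1, a forkhead factor that AKT holds out of the nucleus, had log2 ratios of 0.10, 0.12, 0.10 and 0.32. It was higher in SB cells on all 4 arrays, most on array 4, with a mean of 0.16 ± 0.11 (SD, n = 4; 95% interval 0.03 to 0.29). This 1.12-fold difference did not pass after adjustment (limma, adjusted p = 0.171), and without array 4 it was 0.11 (limma, adjusted p = 0.433). FOXO3, the other FOXO factor of the axis, was read by 3 probes. The brightest had log2 ratios of −0.03, −0.05, 0.06 and −0.10, the second −0.17, 0.18, −0.05 and 0.29, and the third −0.04, −0.08, −0.16 and −0.06. Only the third lay on one side of 0 on all arrays, and the second varied most between arrays. The means were −0.03 ± 0.07, 0.07 ± 0.21 and −0.09 ± 0.05 (SD, n = 4 each), with adjusted p-values from limma of 0.816, 0.697 and 0.436.

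CDKN1B, the FOXO target that encodes p27, had the largest difference of the axis. Its brighter probe (A_23_P204696) had log2 ratios of 0.33, 0.10, 0.29 and 0.21, all higher in SB cells. The mean was 0.23 ± 0.10 (SD, n = 4; 95% interval 0.10 to 0.36), a 1.17-fold difference that fell just short of the threshold (limma, adjusted p = 0.0563). The other probe (A_24_P81841) was spotted 10 times on each array and gave 0.31, 0.08, 0.05 and −0.07. Array 1 was as high there as at the brighter probe, whereas arrays 3 and 4 were near 0, and the mean was 0.09 ± 0.16 (SD, n = 4; limma, adjusted p = 0.503). The SD between spots of this probe within an array was 0.047 to 0.104, against 0.16 between arrays. Over both probes, CDKN1B had a log2 ratio of 0.16 (limma, adjusted p = 0.169). The sign was the same on all 4 arrays for 3 of the 8 genes at their brightest probe, where 26.5% of all genes with values on 4 arrays had one sign.

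Intensities were also taken for each cell type separately, after normalization within and between arrays. For FOXO1, SB cells had 3127, 3907, 4499 and 2194 units on arrays 1 to 4 and SCt cells 2915, 3596, 4199 and 1754. SB cells were higher within every array, but array 4 was far below the others in both cell types, so that the 4 values of each overlapped. For PIK3CA, SB cells had 1545, 2023, 1863 and 1669 units and SCt cells 1804, 2354, 2164 and 1554, so that array 4 had the lowest SCt value. For PIK3R1, SB cells had 267, 241, 282 and 290 units and SCt cells 225, 219, 263 and 244. For both genes the 4 values of SB cells overlapped those of SCt cells. The same held for AKT1, with 9401 to 11244 units in SB cells and 10758 to 13267 in SCt cells, and for PIK3CB, with 1848 to 2013 and 1585 to 2282. At the brighter CDKN1B probe, SB cells had 496, 452, 506 and 433 units and SCt cells 396, 423, 414 and 374. This was the only gene of the axis, at the brightest probe, whose SB and SCt values did not overlap, which held for 2.23% of all genes. Its smallest gap, from 433 units in SB cells on array 4 to 423 in SCt cells on array 2, was narrow. Intensities of different probes are not comparable with each other.

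**Figure D2:**
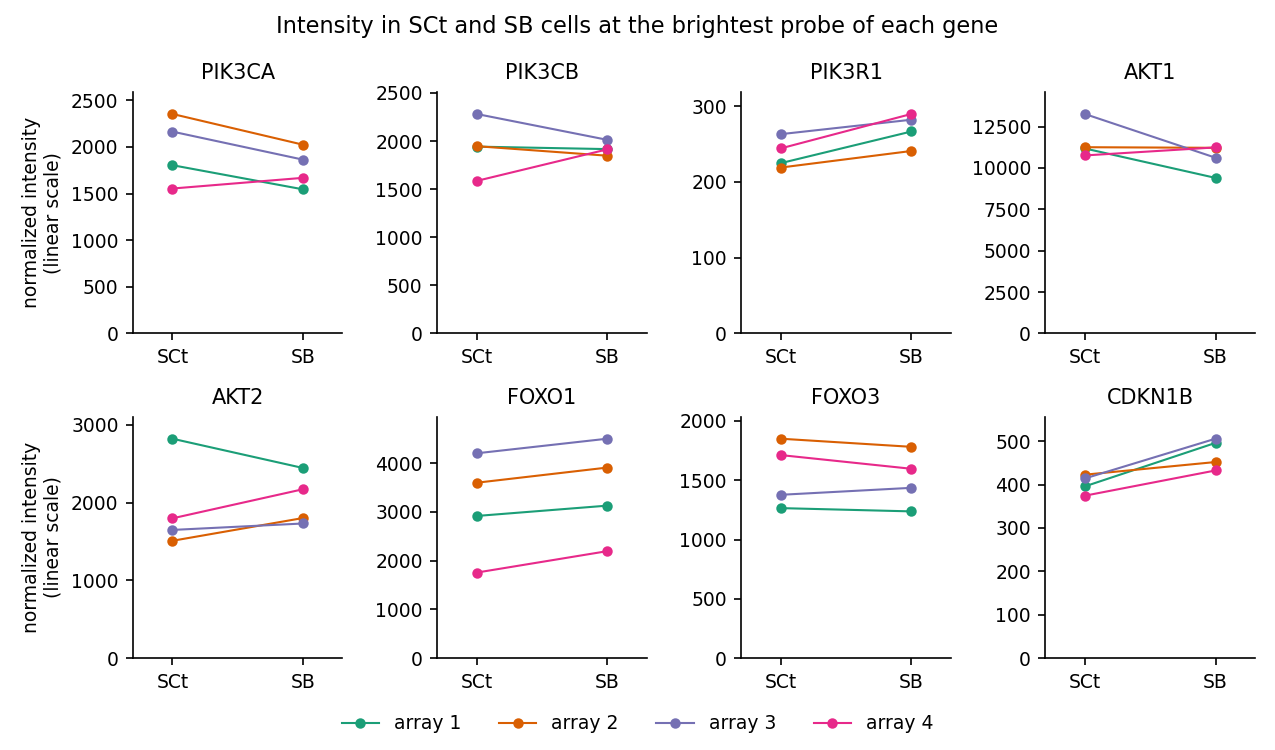
Normalized intensity (vertical axis, linear scale from 0, arbitrary units) in SCt and SB cells at the brightest probe of each axis gene, with a line joining the values of one array. The lines of FOXO1, PIK3R1 and CDKN1B rise on all 4 arrays, those of PIK3CA and PIK3CB fall on 3 and rise on array 4, and the values of SB and SCt cells are apart only for CDKN1B.

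Of 108 further genes of the pathway, in 8 lists by role, 105 were tested. By limma, 4 passed the adjusted threshold and all 4 were lower in SB cells, a share of 3.81% against 3.51% of all genes. At an unadjusted p under 0.05 by limma there were 28 of the 105, a larger share than the 18.1% of all genes. The median log2 ratio of the 105 was 0.00213, near that of all genes, with 53 above 0 and 52 below. Of all 23485 genes, 13005 were above 0 and 10480 below. SGK1, an AKT-related kinase that also phosphorylates FOXO3, had the largest fall, with log2 ratios of −0.51, −0.32, −0.64 and −0.08. Its mean was −0.39 ± 0.24 (SD, n = 4; limma, adjusted p = 0.0228), a 1.31-fold lower level in SB cells. All 4 arrays were lower, array 4 least. PHLPP1, a phosphatase that removes an activating phosphate from AKT, fell by 0.31 ± 0.11 (SD, n = 4; limma, adjusted p = 0.0141). GADD45A, a growth arrest gene that FOXO factors and p53 can induce, fell by 0.27 ± 0.06 (SD, n = 4; limma, adjusted p = 0.0216). IKBKB, the IκB kinase that activates NF-κB and can also phosphorylate FOXO3, fell by 0.24 ± 0.09 (SD, n = 4; limma, adjusted p = 0.0462). These calls were not stable to the loss of an array or to the processing. Of the 4 genes, 0 were called without array 1, 2 or 3, and 4 of 4 without array 4, among 11 of the 105 genes called then, beside 6.58% of all genes. The software's ratios and the series table left SGK1 (limma, adjusted p = 0.0775 and 0.0795) and GADD45A (0.0678 and 0.0689) short of the threshold, and normexp without an offset SGK1 (0.0520) and IKBKB (0.0540). Under centering on the median, 35 of the 105 were called, 28 higher and 7 lower, beside 20.8% and 11.2% of all genes, and of the 4 genes above only PHLPP1 and IKBKB were among them.

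By role, 0 of 9 tested receptors and adaptors passed the adjusted threshold in limma, with a list median of 0.09. Of all genes tested, 3.51% passed, the share to set beside the count of each list. IRS1 and IRS2, the adaptors that link the insulin receptor to PI3K, had log2 ratios of 0.14 and −0.14. IGF1R, the receptor for insulin-like growth factors, had the highest ratio of all the lists, at 0.38 ± 0.27, with values on 3 arrays only (SD, n = 3; limma, adjusted p = 0.0517), and is named here after its value was seen. Among the other PI3K subunits 0 of 11 passed, with a median of 0.02. The catalytic PIK3CD had 0.02, and the regulatory PIK3R2 and PIK3R3 had 0.13 and 0.14, PIK3R2 with values on 2 arrays only. Of the 10 phosphatases, 1 (PHLPP1) passed, and of the 10 AKT kinases and activators, 1 (SGK1). PDPK1, which phosphorylates the activation loop of AKT, had a log2 ratio of −0.13 at its brightest probe and 0.07 at another. Of the 15 AKT substrates and TORC1 genes 0 passed, among them GSK3B, a kinase that AKT inhibits, at −0.15.

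Among the other FOXO factors and their regulators, 1 of 10 passed (IKBKB), and FOXO4 was read by 2 probes, with log2 ratios of 0.18 at the brighter and −0.03 at the dimmer one. Of 26 other FOXO targets, 1 passed (GADD45A, lower), 15 were above 0 and 11 below, with a median of 0.03. Of all 23485 genes, 3.51% passed, 13005 were above 0 and 10480 below. CDKN1A, which encodes the inhibitor p21 and is a FOXO target like CDKN1B, had 0.08. BCL2L11, which encodes the death protein BIM, had 0.13 at its brightest probe and 0.03 and 0.14 at others. In the list around p27 turnover and its partners, 0 of 17 passed, with a median of −0.05. In this list 12 of the 17 were below 0, a larger share than the 10480 of all 23485 genes. SKP2, the part of the ubiquitin ligase that marks p27 for destruction, had a log2 ratio of 0.12 ± 0.25 (SD, n = 4). CDKN1C, which encodes the related inhibitor p57, had −0.12 ± 0.16 (SD, n = 4).

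**Figure D3:**
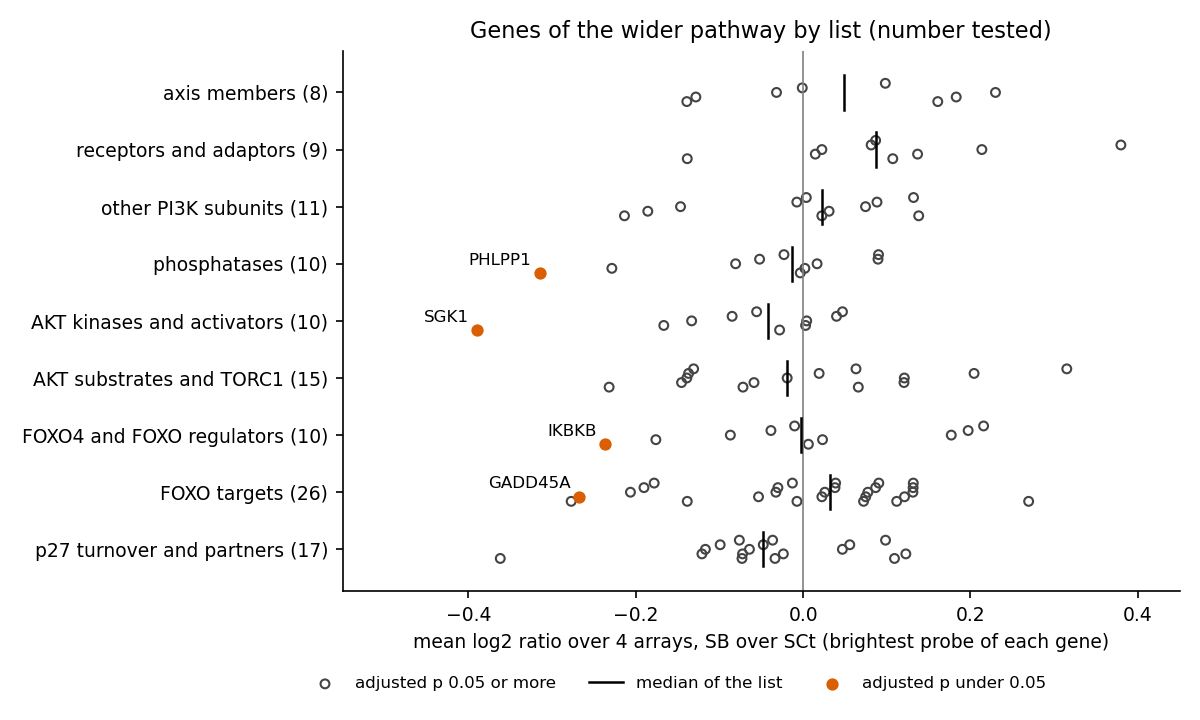
Mean log2 ratio of SB over SCt cells (horizontal axis) at the brightest probe of each gene tested, for the 8 axis genes and 8 further lists of the pathway, with the number tested in parentheses; vertical bars are list medians. The 4 filled points, PHLPP1, SGK1, IKBKB and GADD45A, had an adjusted p under 0.05 and all lie below 0, and the medians lie between −0.05 and 0.09.

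The direction of several axis genes depended on how each array was centered. When each array was centered on its median instead of loess, the ratios of bright probes moved up, by 0.19 for AKT1, 0.12 for FOXO1 and 0.09 for PIK3CA, and those of the 3 dimmest probes moved down, with a shift of −0.05 for PIK3R1 and −0.12 for the dimmest AKT2 probe. AKT1 then had a log2 ratio of 0.07, FOXO3 0.05 and PIK3CB 0.09, all of the opposite sign and none past the threshold. FOXO1, at 0.28 (limma, adjusted p = 0.0103), and CDKN1B, at 0.26 (limma, adjusted p = 0.0142), passed it, 2 of the 8 genes, as did 31.9% of all genes under that centering. Of the 13 probes, 4 passed it, the other two being AKT2 probes of opposite direction, the second brightest at 0.20 (limma, adjusted p = 0.0466) and the dimmest at −0.19 (limma, adjusted p = 0.0355). CDKN1B was also past the threshold without array 4 (log2 ratio 0.24, limma adjusted p = 0.0367). Under every alternative run, CDKN1B, FOXO1, PIK3R1 and AKT2 at their brightest probe stayed above 0 and PIK3CA stayed below 0.

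**Figure D4:**
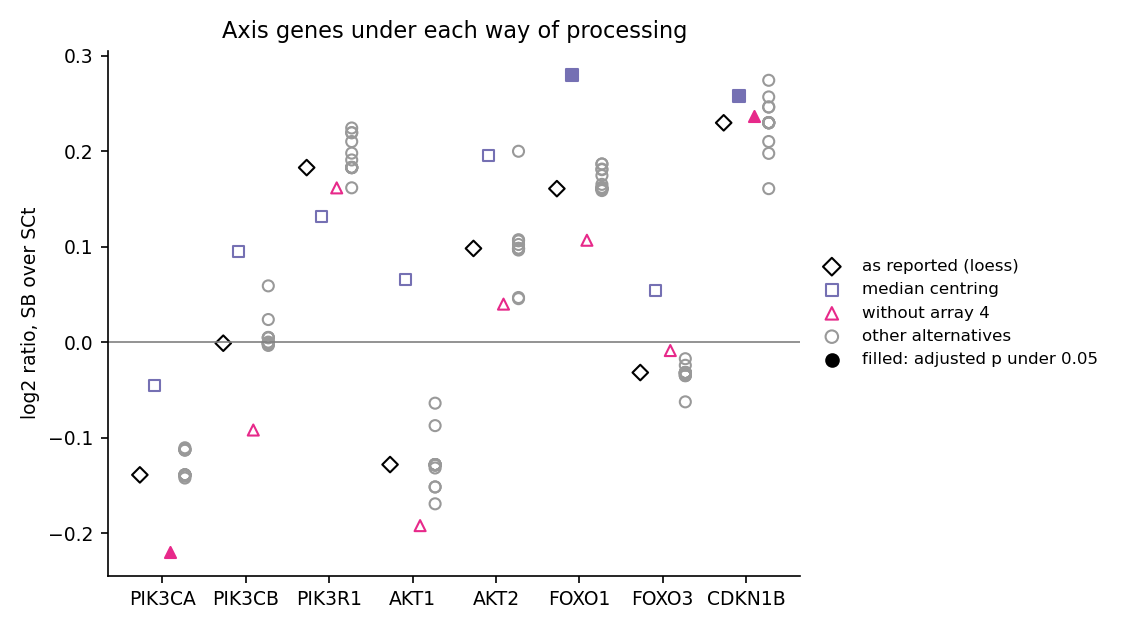
Log2 ratio of SB over SCt cells (vertical axis) of each axis gene as reported (diamonds), with median centering (squares), without array 4 (triangles) and under the other alternatives (circles); filled symbols had an adjusted p under 0.05. The filled symbols are FOXO1 and CDKN1B under median centering and PIK3CA and CDKN1B without array 4, and AKT1, FOXO3 and PIK3CB change sign under median centering.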

How the data were processed

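For each of the 4 arrays, the authors deposited the output of Agilent Feature Extraction 10.5.1.1 (version per the submitters' processing notes), with median red and green intensity per spot and the local background, not normalized. The deposited files also hold the software's ratio on a log10 scale, after its own background subtraction and dye normalization, and the authors deposited a log2 table of SB over SCt for the series, which served as an alternative. For 98.8% to 99.1% of probes per array, these values lay within 0.001 of the ratio of the processed signals.

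The steps from the deposited intensities on were run with limma 3.58.1 (R 4.3.3): normexp (offset 50), removal of 1377 control spots, outlier spots left out (1.89% to 2.71% per array), loess, and the mean over spots of a probe. Between 84.7% and 90.3% of spots per array and channel were well above background. Probes not well above background in one channel on all 4 arrays, or with values on fewer than 2, were dropped (28507 of 34127 stayed, with all 13 axis probes). The others were tested against 0 with lmFit and eBayes, and p-values were adjusted over all of them (Benjamini-Hochberg). RefSeq (GRCh38.p14) named 24826 probes. A gene is read by its brightest probe. Intensities per cell type are after loess and Aquantile. The steps were tested on simulated data. The members, lists and alternatives were chosen with earlier results of these data known. Named were AEG-1, the 8 genes, list genes past the threshold and a fixed set of list genes, of which 1 is not reported here.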

Additional observations from a re-analysis of the deposited data

Results flagged for a closer look

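In 8 of 117 probes examined across the axis, the wider lists and AEG-1 (6.84%), 1 array lay far from the other 3, where chance gives about 5%. The measure is the gap to the nearest array divided by the range of all 4. For PIK3CA it was 0.976 and for FOXO1 0.909, with array 4 the high one in both. Array 4 was also the high one for SKP2 (0.841) and GAB1 (0.915), an adaptor of receptor tyrosine kinases. Array 3 stood apart for CDK4 (0.875) and FOXO4 (0.839), where it was high, and for CDK6 (0.969), where it was low. Array 2 was high for THEM4 (0.846), a regulator of AKT. Array 4 was the highest array at 28.6% of all probes with values on 4 arrays. The reason for these values was not tested.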

How the results depend on the processing

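Of 15 alternatives, 13 left 0 of the 8 axis genes past the threshold. Median centering gave 2 (FOXO1, 0.28, and CDKN1B, 0.26, both called) and 4 of the 13 probes, 35 of the wider genes (28 higher, 7 lower) and 8939 of all probes in place of 1055. It reversed AKT1 (0.0656), FOXO3 (0.0544) and PIK3CB (0.0946). PIK3CB was also reversed without an offset (0.00017), and by the software's ratios and the series table (0.0048 each). The methods' t-test called 0 probes (3936 at an unadjusted p under 0.05) and 0 wider genes (16 unadjusted), and eBayes with trend and robust options 579 probes. IKBKB was also lost with these options (limma, adjusted p = 0.0845) and with outlier spots kept (limma, adjusted p = 0.0534). With each array left out, axis genes called numbered 0 to 2, and axis probes 0 to 2, the 2 being PIK3CA (−0.22) and CDKN1B (0.24) without array 4. All probes called numbered 204 to 1977 (638 without array 1, 421 without array 2, 204 without array 3, 1977 without array 4). Wider genes called numbered 0 to 11 (2 without array 1, 0 without array 2 or 3, 11 without array 4). PIK3CB ranged from −0.0919 to 0.0591, with 0.0051, 0.0238 and 0.0591 without arrays 1, 2 and 3. CDKN1B ranged from 0.20 to 0.27 and PIK3CA from −0.22 to −0.11. Values of genes not called moved too. FOXO3 ranged from −0.06 to −0.01. AKT1 was −0.064 without array 3 and −0.19 without array 4, AKT2 0.20 without array 1, 0.046 without array 2 and 0.040 without array 4, and the second CDKN1B probe 0.021 without array 1 and 0.15 without array 4. The cause was not tested. The number of arrays limits precision: the smallest p of an exact sign-flip test of 4 arrays is 0.125. Each array holds both cell types, so the test of its ratio against 0 is already paired, and no further replicate block could be fitted to 1 group of arrays. All arrays lay on 1 slide, so no block for it was fitted.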
